A study of Sus scrofa with 23 samples.

Results

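SR proteins, heterogeneous nuclear ribonucleoproteins (hnRNPs) and spliceosome subunits were followed in pig Longissimus muscle. Members were the probes whose gene symbol begins with SRSF, SFRS, HNRNP, HNRP, SF3A, SF3B, SNRP or U2AF. These were 19 of the array's 36108 gene names, carried by 82 of 43603 probes, and all 82 passed the filter on dim probes, as did 27799 probes in all. No probe carried a U2AF symbol. The rule reads gene symbols and no measured value, but it was written with earlier results of these data known, among them that probes of SRSF11 differ. Total RNA from 23 pigs was labelled with Cy3 by linear amplification with T7 RNA polymerase, and each pig had its own single-colour Agilent array. The 7 RFIneg pigs (low residual feed intake, RFI) and the 8 RFIpl pigs (high RFI) ate ad libitum. The 8 RFIplR pigs were high-RFI animals held to the feeding level of the low-RFI line. All weighed 115 kg at sampling, and the labels give neither age nor sex. Residual feed intake is the feed an animal eats beyond what its growth and maintenance predict, so a low value marks an efficient animal.

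Splicing removes introns from pre-messenger RNA. SR proteins bind exons through RNA recognition motifs and recruit the spliceosome through tails of alternating arginine and serine, while hnRNPs coat the transcript and often oppose them. SF3A and SF3B proteins recognise the branch site within the U2 particle, and SNRP proteins belong to the small nuclear ribonucleoproteins. Many SR genes regulate their own messenger RNA through alternative exons, so probes along a transcript of one gene can report different isoforms.

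The tissue label was checked against muscle genes. The probes of skeletal actin (ACTA1) lay at percentile 100 and those of myoglobin (MB) at percentile 92.7 of the levels of kept probes. The 8 genes between them were CKM, DES, MYH1, MYH2, MYH4, MYH7, TNNI2 and TNNT3. TNNT1, a muscle marker used later, was not part of this check. Each level given is a log2 signal from which the 75th percentile of its array was taken, and differences are differences of such levels. The share of probes well above background lay between 41.7% and 58.9% on the 4 arrays of slide 3 and between 58.5% and 79.1% on the other 19. Each slide held all 3 groups.

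The sequences below belong to the 4 genes whose probes changed unequally, and SRSF2 at 513 is added for the longest run of arginine and serine codons. They are 60-base array oligonucleotides in the sense direction, printed 5′ to 3′, and each is named by its start in bases from the 5′ end of the transcript it was designed to. Capitals mark an arginine codon (CGN, AGA or AGG) directly followed by a serine codon (TCN, AGC or AGT), in the stop-free frame with most such pairs. Where no frame was free of stops, only the first 30 bases are given.
SRSF11 at 1205: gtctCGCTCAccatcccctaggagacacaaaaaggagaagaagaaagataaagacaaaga
SRSF11 at 2001: cctccaacatgatggatctacttatggtct
SRSF4 at 486: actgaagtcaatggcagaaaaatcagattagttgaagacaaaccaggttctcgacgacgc
SRSF4 at 1377: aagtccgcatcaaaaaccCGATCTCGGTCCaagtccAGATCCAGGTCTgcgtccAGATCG
SRSF6 at 794: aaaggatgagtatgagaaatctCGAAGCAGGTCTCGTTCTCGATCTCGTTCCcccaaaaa
SRSF6 at 961: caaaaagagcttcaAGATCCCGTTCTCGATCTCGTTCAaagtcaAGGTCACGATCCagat
SRSF2 at 513: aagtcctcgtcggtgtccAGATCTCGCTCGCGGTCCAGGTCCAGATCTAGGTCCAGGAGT
SF3B1 at 2612: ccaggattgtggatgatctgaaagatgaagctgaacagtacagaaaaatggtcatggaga
SF3B1 at 4070: cgtagaactggtcatagaagaagagctaga

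Runs of arginine and serine codons stood out in the SR probes. At least 2 such codon pairs occurred in 5 of the 82 member probes (6.1%) and in 245 of all 43603 probes (0.562%). Because such repeats recur across SR genes, the specificity of these probes was not tested. The start positions were checked by overlap. Of 1347 neighbouring probe pairs of 1 target with starts 1 to 30 bases apart, 1342 shared a 15-base word at the listed offset within 3 bases, and 0 matched on the reverse strand.

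No member probe passed an adjusted p of 0.05 in any comparison (limma's moderated test, Benjamini-Hochberg over 27799 probes). Over all probes, the calls were 0.122% for RFIneg minus RFIpl, 0.0036% for RFIplR minus RFIpl, 0.162% for RFIneg minus RFIplR and 0.137% for the F test over the 3 groups. At an unadjusted p under 0.05 more members appeared. In RFIplR minus RFIpl, 22 member probes were higher and 9 lower, together 37.8%, against 4.95% and 4.81%, together 9.76%, of all probes. Under normexp with an offset of 50 the counts were 3 higher and 10 lower, against 13.8% and 4.90% of all probes. In RFIneg minus RFIpl, 13 were higher and 0 lower, together 15.9%, against 7.19% and 3.91%, together 11.1%. This count rested on single pigs. The higher probes numbered 3 without RFIneg pig 5 (6.43% of all probes) and 5 without RFIneg pig 3 (6.072%). They numbered 7 without RFIneg pig 2 (6.597%) and 20 without RFIneg pig 1 (6.673%). The count was 6 without RFIpl pig 8 (6.558%) and 8 without RFIpl pig 2 (6.072%). It was 7 under median centring (6.691%) and under quantile normalization (6.144%). It was 8 in the deposited values (6.145%) and with no filter on dim probes (5.052%). With the 5′ to 3′ balance described later as a covariate it was 6 (7.489%). Under normexp with an offset of 50 it was 0 (0.759%). In RFIneg minus RFIplR, 9 were higher and 12 lower, together 25.6%, against 5.57% and 4.61%, together 10.2%. The F test gave 37.8% of members and 12.5% of all probes. The split in RFIneg minus RFIplR was 3 higher and 11 lower when arrays were centred on the median (3.32% and 4.85% of all probes). It was 10 and 7 after quantile normalization (5.26% and 5.025%) and 8 and 15 in the deposited values (4.275% and 5.7%). Normexp gave 6 and 18 on negative controls (5.32% and 4.53%) and 5 and 0 with an offset of 50 (2.01% and 1.71%). It was 11 and 5 with slide as a fixed block (6.25% and 4.84%) and 8 and 7 with the replicate number as a block (4.76% and 4.46%). Without slide 3 it was 8 and 2 (3.81% and 3.53%). The lower probes numbered 6 without RFIneg pig 1 (3.51% of all probes), 2 (3.53%) or 7 (4.17%). They also numbered 6 without RFIplR pig 6 (4.12%), and 5 without RFIplR pig 8 (3.87%). Probes of one gene measure one transcript in part and are not independent, and the 3 comparisons share pigs. The median difference of members was 0.04, 0.14 and -0.11 in the order RFIneg minus RFIpl, RFIplR minus RFIpl and RFIneg minus RFIplR, beside 0.02, 0.01 and 0.02 for all probes.

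**Figure D1:**
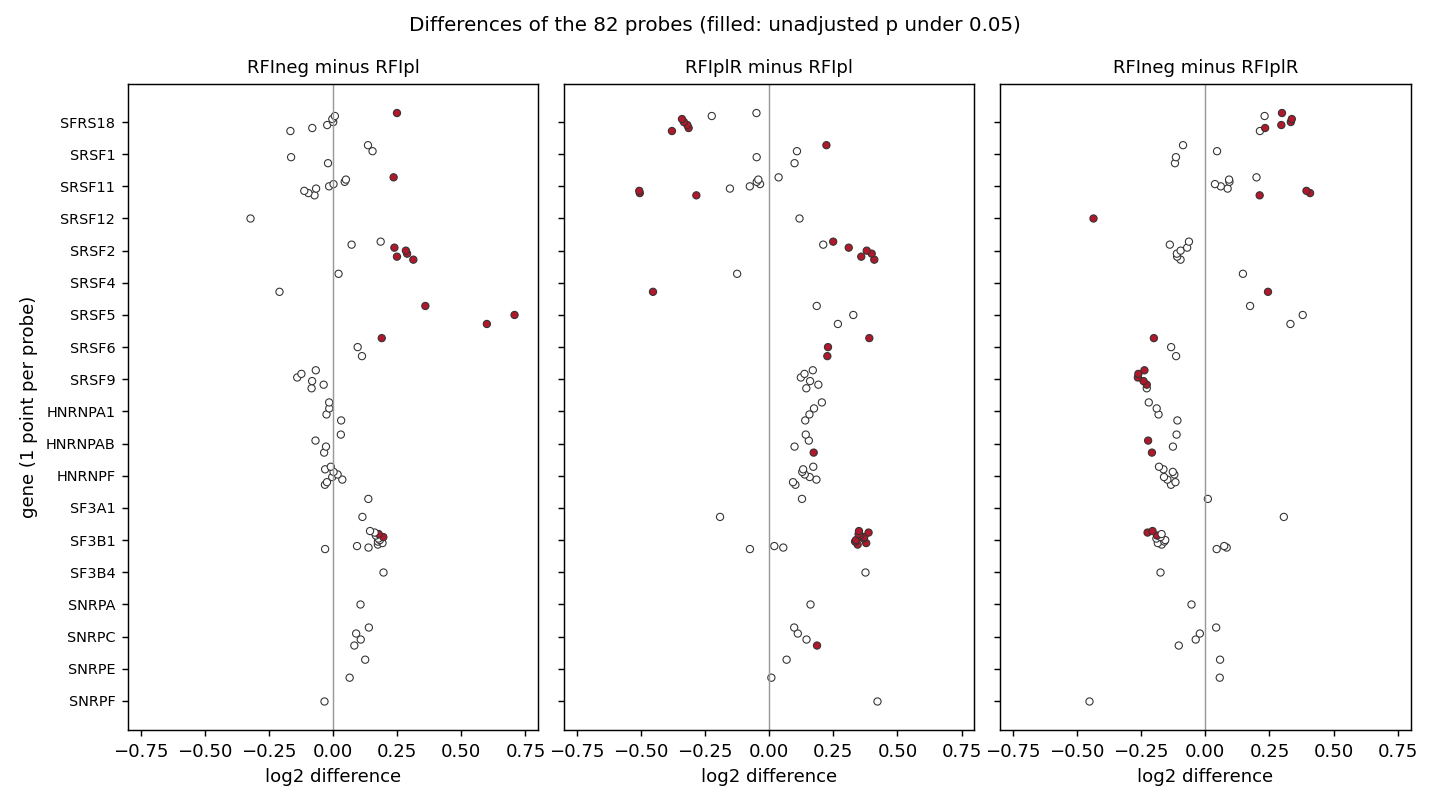
Log2 differences of the 82 member probes, 1 point per probe, by gene (vertical axis) for the 3 comparisons; filled points have an unadjusted p under 0.05. SF3B1 and SRSF2 lie mostly right of 0 in RFIplR minus RFIpl, where SFRS18 lies left of 0 and SRSF11 is spread from -0.51 to 0.04.

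Within the high-RFI line, RFIplR minus RFIpl compares restricted with free feeding at equal body weight. The labels give no age, so a difference in age at sampling cannot be told apart from the ration. SRSF2, an SR protein that binds exonic enhancers, had 7 of 7 probes above 0, from 0.21 to 0.41, and 6 of them had an unadjusted p under 0.05. Its probes lie on a pair of target sequences. At position 1693 the RFIpl pigs ranged from 2.81 to 3.26 with a median of 2.91, and the RFIplR pigs from 2.93 to 3.54 with a median of 3.45. All 8 restricted pigs lay above the RFIpl median, and the groups overlapped. The difference was 0.38 ± 0.10 (SE), a ratio of 1.30, with an adjusted p of 0.136 in the limma fit. SRSF6, which acts in exon choice in many tissues, gave 0.23 at position 311, 0.23 at 794 and 0.39 at 961. At 961 the RFIpl pigs ranged from 1.55 to 1.87 around a median of 1.62. The RFIplR pigs ranged from 1.80 to 2.30 around 2.02, so that 6 of 8 restricted pigs exceeded every RFIpl pig. The adjusted p was 0.104 in the limma fit. Under background correction by normexp with an offset of 50, values were -0.36 for SRSF2 at 1693, -0.10 for SRSF6 at 961 and -0.28 for SF3B1 at 4070, and quantile normalization after it reversed none of the named values.

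SF3B1, the large SF3B subunit at the branch site, divided by position in that comparison. Its 10 probes from 3423 to 4165 had differences from 0.33 to 0.39, with adjusted p from 0.101 to 0.182 in the limma fit. Its 3 probes at 441, 1478 and 2612 had -0.08, 0.05 and 0.02. At 4070 the RFIpl pigs ranged from 2.51 to 2.86 with a median of 2.69, and the RFIplR pigs from 2.86 to 3.33 with a median of 3.05. The groups overlapped by 1 pig of each, and 7 of 8 restricted pigs lay above every RFIpl pig. The difference was 0.39 ± 0.08 (SE), and it was 0.52 on scan day 1 and 0.25 on scan day 2. At 2612 the groups overlapped widely, from 0.37 to 0.79 in RFIpl and from 0.42 to 0.87 in RFIplR. Several downstream probes overlap each other, so they count as repeated readings of one stretch.

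SRSF11, an SR protein that can bind U2AF at the 3′ splice site, also divided by position, with its upstream probes set apart. The probes at 386, 780 and 1205 had differences of -0.28, -0.50 and -0.51, while the 6 probes from 1650 to 2679 had -0.15 to 0.04. At 1205 the RFIpl pigs ranged from 2.88 to 3.49 with a median of 3.16. The RFIplR pigs ranged from 2.25 to 2.98 with a median of 2.75, and 7 of 8 lay below every RFIpl pig. The ratio was 0.704, with an adjusted p of 0.101 in the limma fit, and the difference was -0.81 on scan day 1 and -0.20 on scan day 2. The RFIneg pigs, from 2.94 to 3.23 with a median of 3.13, lay near the RFIpl pigs. At 2001 the medians were 1.73 in RFIneg, 1.70 in RFIpl and 1.62 in RFIplR, and the groups overlapped. SRSF11 at 1205 had the smallest F test p of the members, with an adjusted p of 0.0677 in limma.

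SFRS18, an arginine- and serine-rich nuclear protein now named PNISR, had 7 of 7 probes below 0 in RFIplR minus RFIpl. Its 5 probes from 198 to 1634 had differences from -0.38 to -0.31, each with an unadjusted p under 0.05, and the probe at 2955 had -0.05. At 1275 the RFIpl pigs ranged from 2.12 to 2.61 with a median of 2.37, and the RFIplR pigs from 1.87 to 2.62 with a median of 2.08. The groups overlapped, with 5 of 8 restricted pigs below every RFIpl pig and RFIplR pig 1 above all of them. SRSF4, an SR protein with a long arginine and serine tail, had -0.45 at 486 and -0.13 at 1377. At 486, RFIpl ranged from -1.68 to -1.02 and RFIplR from -1.86 to -1.35. SRSF1, a founding SR protein, had 0.22 at 2577 and -0.05 at 1453.

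**Figure D2:**
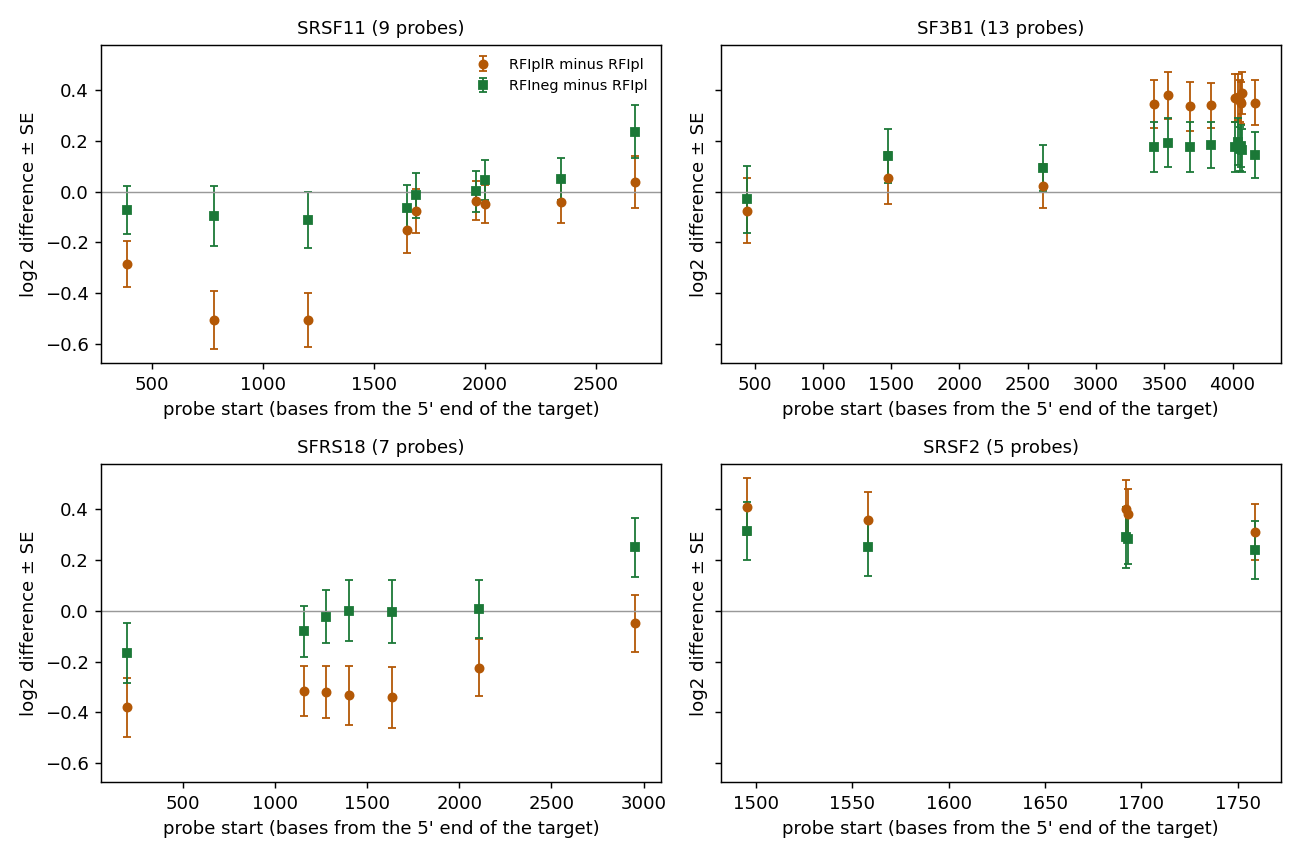
Log2 differences ± SE (vertical axis) against the probe's start in bases from the 5′ end of its target (horizontal axis) for SRSF11, SF3B1, SFRS18 and the 5 SRSF2 probes on 1 target. In RFIplR minus RFIpl, SRSF11 is at -0.51 at 1205 and -0.05 at 2001, and SF3B1 is at 0.02 at 2612 and 0.35 at 4165.

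Unequal change within a gene was tested on the within-array difference between each probe and the brightest probe of its gene. Over all genes, 3.34% of 6224 such pairs passed an adjusted p of 0.05 in RFIplR minus RFIpl, and 8 of 63 member pairs (12.7%) did. For RFIneg minus RFIpl the shares were 0.0321% of all pairs and 0 member pairs, and for RFIneg minus RFIplR 0.0643% and 0. The 8 pairs were in SRSF11 (5 probes against 1205), SRSF4, SRSF6 and SF3B1. The 5 SRSF11 pairs share the probe at 1205, so they are not independent. That SRSF11 probes differ was known when members were chosen, so the 12.7% is no independent support for unequal change among members. For SRSF11 the probe at 2001 minus that at 1205 differed by 0.46 (adjusted p of 0.00938 in limma), by 0.72 on scan day 1 and by 0.20 on scan day 2. The log2 difference within an array, 1205 minus 2001, ran from 1.28 to 1.76 in RFIpl and from 0.59 to 1.43 in RFIplR, with a median of 1.40 in RFIneg. For SF3B1 the probe at 2612 minus that at 4165 differed by -0.33 (adjusted p of 0.0262 in limma), for SRSF4 486 minus 1377 by -0.33 (adjusted p of 0.0324), and for SRSF6 794 minus 961 by -0.16 (adjusted p of 0.0387). No member pair passed without the arrays of slide 3, where the SRSF11 difference was 0.36 with an adjusted p of 0.0717. The count was 4 without RFIpl pig 2 or RFIplR pig 8, and 5 without RFIpl pig 4, RFIplR pig 2 or RFIplR pig 6. It was also 4 with only the 2 compared groups in the fit. Calls over all 6224 pairs fell too, from 208 to 44 without slide 3 and to 156 with the 2 groups. Without the pigs just named they were 118, 134, 119, 132 and 127, in that order.

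The arrays also differed in how transcript ends compared across the whole table. For each array a 5′ to 3′ balance was taken, the median over 1536 targets outside the members of the first minus the last probe, at least 500 bases apart and centred per target. It averaged 0.0325 ± 0.0316 (SD, n = 8) in RFIpl, -0.0390 ± 0.0589 (n = 8) in RFIplR and 0.0014 ± 0.0448 (n = 7) in RFIneg. RFIplR minus RFIpl was -0.0714 (two-sided exact permutation test, p = 0.0112, adjusted p = 0.0336 over 3 comparisons). The adjusted p was 0.0578 to 0.0667 in the exact test when RFIpl pig 1, 2, 3 or 6 or RFIplR pig 2, 4, 5, 6 or 8 was left out. Without slide 3 it was -0.0614 (exact p = 0.0408, adjusted p = 0.122). The values were -0.0882 on scan day 1 (exact p = 0.0286) and -0.0547 on scan day 2 (exact p = 0.257). Among 1545 such first and last pairs with members included, 6.54% passed an adjusted p of 0.05 in RFIplR minus RFIpl, and the 5′ probe was the lower one in 99 of them (6.41% of all). In RFIneg minus RFIpl 0.259% passed, all 4 with the 5′ probe lower (0.259%). In RFIneg minus RFIplR 0.194% passed, and 0.129% had the 5′ probe lower. Of the 9 member targets with such a pair, 2 were called in RFIplR minus RFIpl, SFRS18 (-0.33) and SRSF4 (-0.33), both with the 5′ probe lower. The SFRS18 pair differed by -0.42 in RFIneg minus RFIpl (unadjusted p of 0.00032 and adjusted p of 0.0705 in limma), and by -0.09 in RFIneg minus RFIplR.

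The differences of 5 member probe pairs were set beside this balance across the 23 pigs, as a description. Permutation p-values of r and rho were computed but are not given, because of how the pairs were chosen. The pairs were chosen because they differed between RFIplR and RFIpl, whose balance also differed, so r over all pigs follows in part from that choice. For SRSF11 (1205 minus 2001) r was 0.60 and rho 0.62 over all pigs, and r was 0.88 in RFIneg, -0.36 in RFIpl and 0.52 in RFIplR. For SF3B1 (2612 minus 4165) r was 0.66 and rho 0.62, and r was 0.30, 0.01 and 0.73 within RFIneg, RFIpl and RFIplR. For SRSF4, SRSF6 and SFRS18 r over all pigs was 0.58, 0.47 and 0.49, and without slide 3 it was 0.37, 0.36 and 0.31. Without the 2 arrays farthest from the median balance, r of the 5 pairs lay between 0.46 and 0.62. Within RFIpl it was -0.24, 0.16 and -0.06 for these 3, so the highest of the 5 there was 0.16. Within RFIneg it was 0.30, -0.22 and 0.37, and within RFIplR 0.56, 0.37 and 0.63. On scan day 1 the 5 values lay between 0.54 and 0.82, and on scan day 2 between 0.10 (SFRS18) and 0.54. With the balance as a covariate, 0 of the 63 member pairs and 4 of the 6224 pairs passed in RFIplR minus RFIpl. The SRSF11 pair then differed by 0.36 (unadjusted p of 0.00485 in limma, adjusted p of 0.223) and the SF3B1 pair by -0.21 (unadjusted p of 0.0304 in limma, adjusted p of 0.373). The single-probe differences were -0.41 for SRSF11 at 1205, 0.34 for SF3B1 at 4070, 0.31 for SRSF2 at 1693 and 0.35 for SRSF6 at 961. How far the balance accounts for the differences by position was not tested beyond these values.

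**Figure D3:**
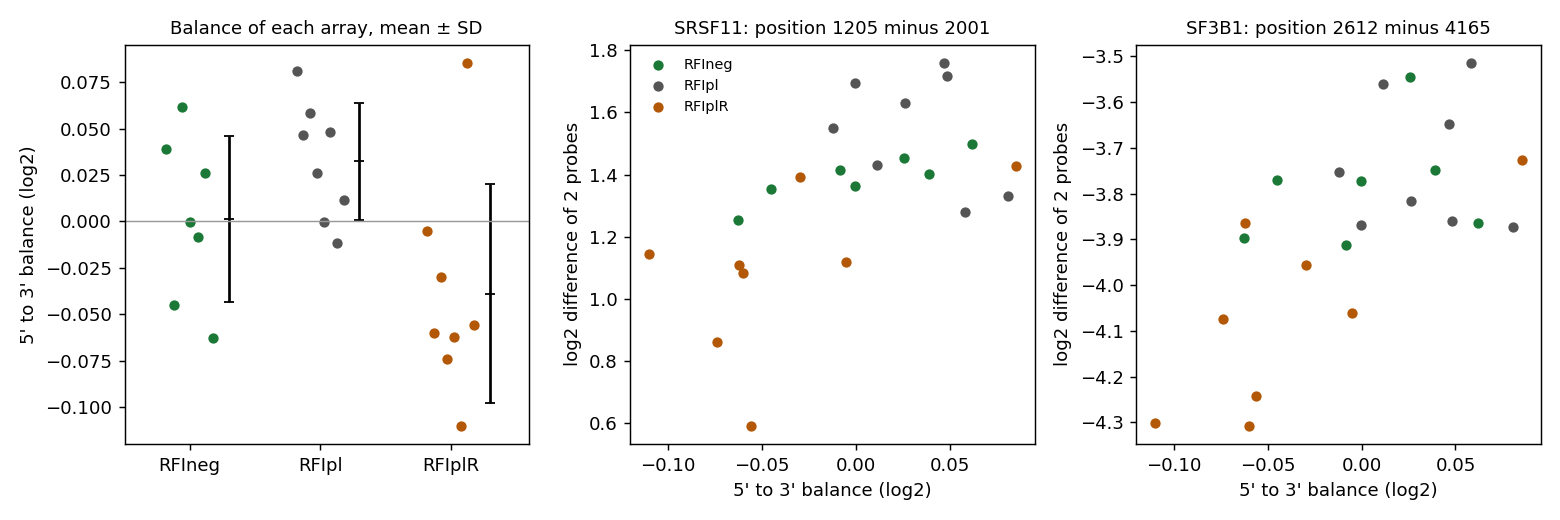
Left, the 5′ to 3′ balance of each array in log2 units by group, with mean ± SD. Centre and right, the log2 difference between a pair of SRSF11 probes and a pair of SF3B1 probes against that balance, 1 point per pig. RFIplR arrays average -0.0390 and RFIpl arrays 0.0325, and r is 0.60 for SRSF11 and 0.66 for SF3B1.

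All 16 probes of HNRNPA1, a shuttling protein that silences exons, HNRNPAB, an RNA-binding protein of the A/B type, and HNRNPF, which binds runs of guanines, were above 0 in RFIplR minus RFIpl, from 0.09 to 0.21, and 1 had an unadjusted p under 0.05. That was HNRNPAB at 1263, on a target of its own. RFIpl ranged there from 2.78 to 3.23 with a median of 2.95, and RFIplR from 3.05 to 3.25 with a median of 3.16. The restricted pigs were tightly grouped (SD 0.0752, n = 8) and all above the RFIpl median. The difference was 0.17 with an adjusted p of 0.407 in the limma fit. All 16 stayed above 0 under median centring, quantile normalization and normexp on negative controls, where the HNRNPF median was 0.19, 0.06 and 0.13, but under normexp with an offset of 50 that median was -0.66 and 15 of the 16 lay below 0.

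SNRPC, the C protein of the U1 particle, had a mean level of 5.32 at position 552, and the differences of its 4 probes ran from 0.10 to 0.19 in RFIplR minus RFIpl. A pair of its probes has the same sequence. It read 0.11 and 0.10 in that comparison, 0.09 and 0.14 in RFIneg minus RFIpl, and -0.02 and 0.04 in RFIneg minus RFIplR. SNRPE, of the Sm ring, had 0.01 and 0.07. SNRPA, of the U1 particle, had 0.16. SF3A1, which holds the U2 particle together with the SF3B proteins, had 0.13 at 2893. SF3B4, an RNA-binding SF3B subunit, with 0.37, and SNRPF, of the Sm ring, with 0.42, were dim. SF3B4 was well above background on 4 of 7 RFIneg, 4 of 8 RFIpl and 6 of 8 RFIplR arrays and passed the filter only through RFIplR. SNRPF was so on 4, 6 and 5 arrays and passed only through RFIpl. SF3A1 at 937 was well above background on 6 arrays of each group and had -0.19.

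The comparison of free-fed low-RFI and high-RFI pigs asks how the lines differ. SRSF5, an SR protein known for insulin-dependent splicing of a protein kinase C gene, had the largest member differences. They were 0.60 ± 0.24 (SE) at 318, 0.71 ± 0.30 at 467 and 0.36 ± 0.12 at 776, with adjusted p of 0.349, 0.365 and 0.271 in the limma fit. At 776 the RFIneg pigs ranged from 2.63 to 3.30 with a median of 3.20, and the RFIpl pigs from 2.43 to 2.86 with a median of 2.78. Of 7 RFIneg pigs, 5 lay above every RFIpl pig, and the other 2 lay within the RFIpl range. The RFIplR pigs had a median of 2.94. The difference at 776 was 0.44 on scan day 1 and 0.23 on scan day 2. SRSF5 also varied most among genes with several probes, with a median SD within groups of 0.50, beside 0.18 for all members and 0.30 for all probes. SRSF2 was above 0 at 7 of 7 probes, from 0.07 to 0.31, and 5 had an unadjusted p under 0.05. At 1693 the RFIneg pigs ranged from 3.06 to 3.47 with a median of 3.24, and 6 of 8 RFIpl pigs lay below all of them. The adjusted p was 0.283 in the limma fit. The last probes of SRSF11 (2679) and SFRS18 (2955) had 0.24 and 0.25, while their other probes lay between -0.17 and 0.05. SF3B1 had 12 of 13 probes above 0, with values from -0.03 to 0.20, and 2 had an unadjusted p under 0.05. Its lowest adjusted p was 0.433 in the limma fit, and under normexp with an offset of 50 only 3 probes were above 0. The hnRNPs lay between -0.07 and 0.04.

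Markers of muscle and fat cells were read alongside. In RFIneg minus RFIpl, 0 of their probes passed an adjusted p of 0.05 in limma. At an unadjusted p under 0.05, 7.19% of all probes were higher there and 3.91% lower. Of 68 probes of 11 muscle genes, 21 were higher in RFIneg than in RFIpl and 0 lower at an unadjusted p under 0.05, with a median of 0.16. Of 24 probes of 7 adipocyte genes, 0 were higher and 3 lower, with a median of -0.65. The summed linear adipocyte signal ranged from 47.7 to 148 in RFIneg, from 52.6 to 374 in RFIpl and from 54.8 to 218 in RFIplR, and that of muscle genes from 39250 to 45190, from 32350 to 44600 and from 30740 to 46290. All 11 muscle markers passed the filter, and of the adipocyte markers only PLIN1 did not. Their part in the SRSF5 and SRSF2 values was not tested, and fewer cells of a type cannot be told apart from less RNA per cell. In RFIneg minus RFIpl, medians were -0.29 for leukocyte (12 probes), -0.16 for endothelial (10 probes), -0.15 for fibroblast (15 probes) and -0.61 for nerve genes (3 probes). No erythroid marker was matched to a probe. In RFIplR minus RFIpl the medians were 0.05 for muscle (0 higher and 1 lower), -0.17 for adipocyte (0 and 0), -0.21 for fibroblast (0 and 2), -0.0016 for leukocyte (0 and 1), -0.05 for endothelial (0 and 1) and 0.42 for nerve genes (1 and 0).

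**Figure D4:**
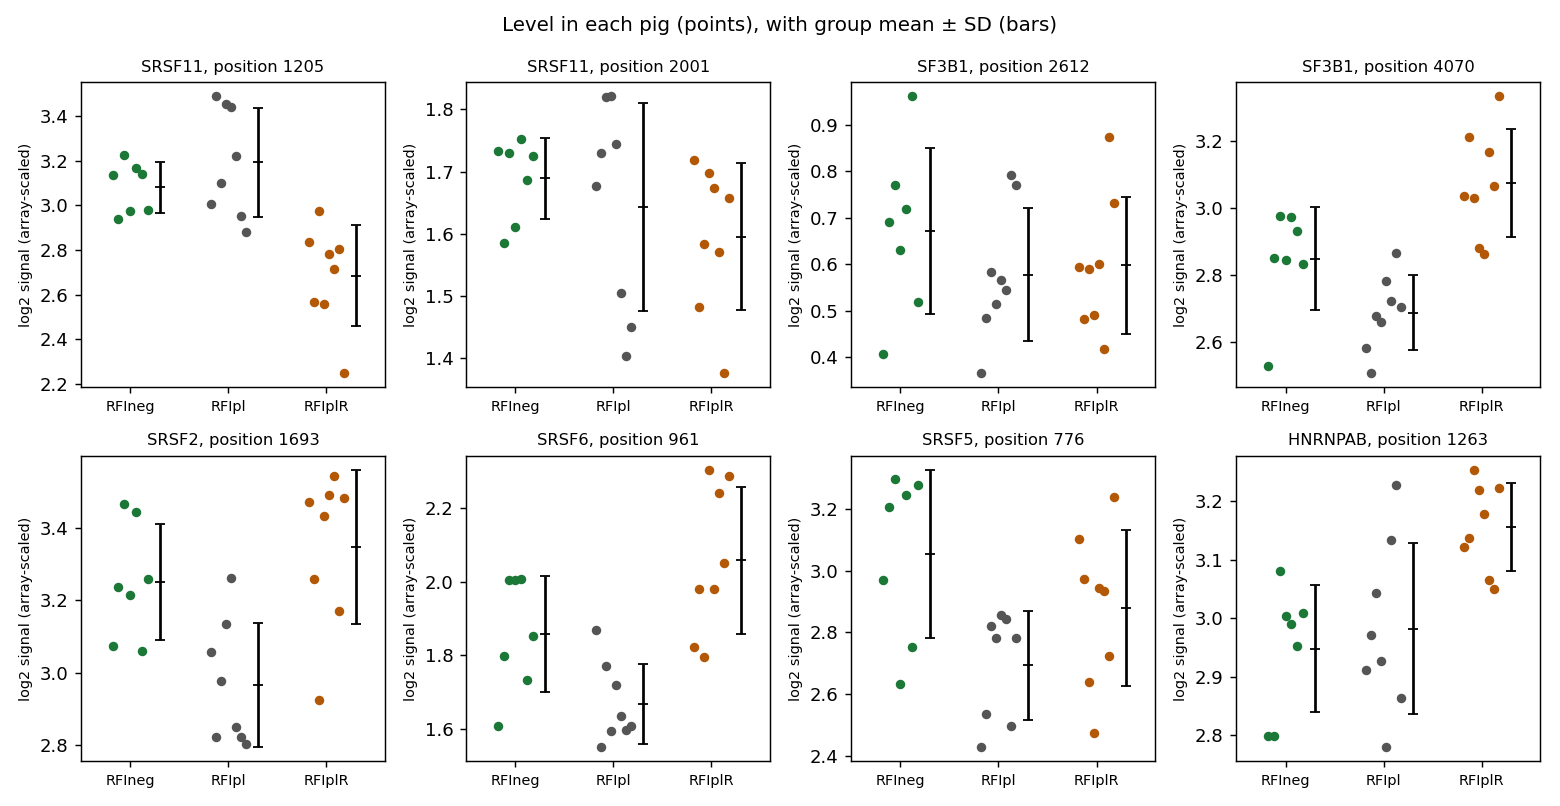
Log2 level of 8 probes in each pig (points) by group, with group mean ± SD (bars). For SRSF11 at 1205 the RFIplR median is 2.75 against 3.16 in RFIpl, and at 2001 it is 1.62 against 1.70; for SRSF5 at 776 the RFIneg median is 3.20 against 2.78 in RFIpl.

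RFIneg minus RFIplR sets the lines against each other at equal feeding. It reuses the pigs of both other comparisons. Of the 3 nerve probes 2 were called lower in RFIneg (median -1.02), and the summed nerve signal ranged from 5.80 to 12.7 in RFIneg and from 12.2 to 25.0 in RFIplR. Muscle probes had a median of 0.12 (2 higher and 0 lower at an unadjusted p under 0.05) and adipocyte probes one of -0.52 (0 and 2). The part of these in the member values was not tested. SRSF9, a short SR protein, had 6 of 6 probes below 0 in RFIneg minus RFIplR, from -0.26 to -0.23, and 5 had an unadjusted p under 0.05. That count was 2 after quantile normalization and 1 with slide as a fixed block. It was 6 under median centring, under normexp on negative controls and in the deposited values. At 1256 the RFIneg pigs ranged from 2.258 to 2.599 with a median of 2.43, and the RFIplR pigs from 2.39 to 3.17 with a median of 2.63, so the groups overlapped. Under normexp with an offset of 50 that value was 0.12. SFRS18 was above 0 at 7 of 7 probes, from 0.21 to 0.34, and its probe at 1275 had an adjusted p of 0.327 in the limma fit. SRSF11 had 0.41 at 780 and 0.39 at 1205, with adjusted p of 0.196 and 0.187 in the limma fit. HNRNPAB at 1263 had -0.21, and 6 of 8 RFIplR pigs exceeded every RFIneg pig. SRSF12, a protein that can oppose other SR proteins, had -0.44 on a single dim probe, well above background on 6, 7 and 7 arrays of RFIneg, RFIpl and RFIplR. That value was -0.77 on scan day 1 and -0.02 on scan day 2, and -0.087 under normexp on negative controls.

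Other splicing genes gave no call either. Of 36 probes of 10 SR-related genes and SR protein kinases, 0 were higher and 1 lower in RFIplR minus RFIpl at an unadjusted p under 0.05. The corresponding counts were 1 higher and 1 lower among 26 probes of 7 muscle splicing regulators and hnRNP-like genes, 7 and 4 among 27 probes of 11 core spliceosome genes, and 0 among 2 probes of 1 nonsense-mediated decay gene. The medians were 0.04 for the SR-related genes and kinases, 0.01 for the muscle regulators and hnRNP-like genes, 0.13 for the core spliceosome and 0.03 for the decay gene, beside 0.14 for the members. PRPF38B, a spliceosome activation factor, had -0.53 (adjusted p of 0.101 in limma). SRPK1, a kinase of SR proteins, had -0.47 at one probe and 0.10 at its other. In RFIneg minus RFIpl the smallest p belonged to probes of RBM8A (0.31), PTBP1 (-0.41) and QKI (-0.27). In RFIneg minus RFIplR it belonged to probes of DDX39B (-0.32), TRA2B (-0.52) and QKI (-0.27). Their adjusted p ran from 0.215 to 0.328 in the limma fit. In these comparisons the 4 PTBP1 probes ran from -0.41 to 0.01 and the 6 TRA2B probes from -0.52 to 0.20. The probes of RBM8A, QKI and DDX39B each stayed on the same side of 0.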

How the data were processed

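The deposited spot intensity values were background-subtracted by Feature Extraction 10.7.3.1, per the file headers. Within every array the deposited log2 table differed from log2 of that signal by a single offset (correlation 1), with medians of 0; it holds 80 of the 82 member probes and served as an alternative. The submitters' processing notes name R 2.10.0. Here log2 signal was reduced by the array's 75th percentile, outlier spots were dropped and spots of a probe averaged. A probe was kept if well above background on 6 or more arrays of any group. One model of all 3 groups was fitted with limma 3.58.1 (R 4.3.3), with Benjamini-Hochberg adjustment over all kept probes, and probe pairs likewise over all pairs. The scripts were tested on simulated data. Replicates are separate pigs, and their number limits the precision. The files name no genome build, so no coordinates are given.

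Members and gene lists were chosen with earlier results of these data known. Genes named are, for each comparison, the 8 members with the smallest p, the 2 brightest of each family, those whose probes disagree in sign or in a probe pair, and the 3 other splicing genes with the smallest p. One of these is not reported here. The balance was chosen after seeing the data.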

Additional observations from a re-analysis of the deposited data

Results flagged for a closer look

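Of 72 sets of values from one group, 3 held a pig set apart from the rest of its group, and chance sets apart about 1 in 20 such sets. SFRS18 at 1275 was 2.62 in RFIplR pig 1, against 2.13 in the next restricted pig. SRSF4 at 486 was -1.35 in that same pig, against -1.65 in the next. SF3B1 at 4070 was 2.53 in RFIneg pig 1, against 2.83 in the next.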

How the results depend on the processing

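Member probes called stayed at 0 in each pairwise comparison under every alternative. In the F test SRSF11 at 1205 was called (1 member) after quantile normalization, with probes well above background on all 23 arrays and with trend and robust variance, and 2 members with slide as a random block. Member pairs called in RFIplR minus RFIpl were 8 as reported, beside 208 of all 6224 pairs. After quantile normalization they numbered 5 (181 of all pairs). They numbered 3 under each of the 2 normexp corrections (29 of all pairs with an offset of 50, 139 on negative controls). The count was 4 with only the 2 groups compared (156 of all pairs) and 0 without slide 3 (44). With the balance as a covariate it was 0 (4 of all pairs), and 4 to 10 when 1 pig was left out (118 to 274). With the replicate number as a block, 4 member pairs were called, and all pairs called were 115 against 208. Deviations of same-numbered pigs correlated from -0.30 to 0.33, so the numbers were not taken to pair pigs. In RFIplR against RFIpl 4 of 8 pairs were over 0.1 and 7 of 16 pigs correlated best with their own number, a hint from the data only. The block changed no other member call. Normexp with an offset of 50 left medians of 503 to 4089 on 5 arrays against 117 to 212 on 18. The 5 arrays were those of RFIneg pig 4, RFIpl pig 1 and RFIplR pigs 2, 3 and 5, so they were spread unevenly over the groups. The correction moved the members' medians to -0.080, -0.40 and 0.33, and the all-probe median to 0.21 in RFIplR minus RFIpl. It reversed SF3B1 at 4060 (0.18 to -0.040) and SRSF12 (-0.32 to 0.12) in RFIneg minus RFIpl. It reversed SF3B1 at 4070 (-0.28), SRSF6 (-0.10), SRSF4 (0.13), SRSF2 (-0.36), HNRNPAB (-0.52) and SRSF1 (-0.53) in RFIplR minus RFIpl. In RFIneg minus RFIplR it reversed HNRNPAB (-0.21 to 0.30), SF3B1 at 4070 (-0.23 to 0.27) and SRSF9 (-0.26 to 0.12). It also reversed SRSF4 at 486 (0.24 to -0.14) and SRSF6 at 961 (-0.20 to 0.14) there. Quantile normalization after that correction, an alternative added after seeing the data, reversed none of them and called 1 member in the F test. The balance difference missed an adjusted p of 0.05 with probes 200 bases apart (0.0541) and, at 0.0578 to 0.0667, without any one of 9 pigs.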
